A study of Mus musculus with 18 samples.

Results

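Chromatin occupancy of RNA polymerase II (Pol II) was compared with that of the DNA-binding protein CTCF in the ventricles of WT mice. The comparison took the 2 Pol II libraries and the 2 CTCF libraries that the labels assign to WT heart, 4 of 18 libraries in the series, and all 101256 regions of the table. The control was 1 IgG library of WT heart. The other libraries came from *Trdn-as* KO mice, which carry a termination cassette in this gene of an antisense RNA, and from Mettl3lox/lox:alphaMHC-MerCreMerpos mice, in which an inducible Cre under the cardiomyocyte promoter alphaMHC removes *Mettl3*. They are used only where stated. Strain, sex and exact age of the WT mice are not given in the labels. By the methods, nuclei of ventricles from 2 adult hearts were fixed and the sheared chromatin was pooled. Replicates are separate libraries, the sources used here do not say whether they came from separate hearts, and p-values may therefore measure technical spread. The WT ventricle holds several cell types, so that fewer cells of a type and less occupancy per cell cannot be told apart.

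Pol II is the enzyme that transcribes protein-coding genes. It collects just behind the transcription start site, where it pauses, and then moves through the gene body, so that strongly transcribed genes carry it along their whole length. CTCF is a zinc-finger protein that binds a long, fixed DNA motif at promoters, between genes and inside genes, where it halts the cohesin ring and so marks the borders of chromatin loops and insulates imprinted genes. The CTCF antibody was part of the kit and served as the positive control of the immunoprecipitation.

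6 promoters show the sequence side of the comparison. *Tmem242* and *C1qbp* had the highest CTCF value per kb among coding promoters that were occupied by both proteins and hold the core of the CTCF motif, *Pcp4* and *Srrm3* had the highest among those occupied by CTCF alone, and *Myh6* and *Actc1*, the genes of cardiac myosin heavy chain and cardiac actin, had the largest excess of Pol II among sarcomere genes. They were chosen after their values were seen. Each run spans 250 bases before to 50 after a RefSeq start site in GRCm38.p6 and was matched to the regions by gene symbol, since the regions lie on GRCm39. Capitals mark the motif core (CCA, any 2 bases, AG, any 2 bases, GGC, or its reverse complement) in *Tmem242*, *C1qbp*, *Pcp4* and *Srrm3*, and the letters TATAAA, those of a TATA box, in *Myh6* and *Actc1*.
Tmem242, chr17:5440211-5440510, minus strand: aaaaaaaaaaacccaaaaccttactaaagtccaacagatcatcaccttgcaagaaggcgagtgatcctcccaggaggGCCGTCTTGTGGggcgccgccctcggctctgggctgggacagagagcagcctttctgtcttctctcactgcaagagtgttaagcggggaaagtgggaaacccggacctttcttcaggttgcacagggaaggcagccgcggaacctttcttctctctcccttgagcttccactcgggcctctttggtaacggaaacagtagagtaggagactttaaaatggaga
C1qbp, chr11:70982977-70983276, minus strand: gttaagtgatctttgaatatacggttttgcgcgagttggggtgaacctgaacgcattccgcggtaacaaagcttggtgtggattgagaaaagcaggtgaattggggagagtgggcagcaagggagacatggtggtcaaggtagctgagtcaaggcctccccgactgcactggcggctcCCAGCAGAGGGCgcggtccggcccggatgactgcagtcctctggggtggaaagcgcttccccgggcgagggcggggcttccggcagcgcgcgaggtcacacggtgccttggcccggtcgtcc
Pcp4, chr16:96467356-96467655, plus strand: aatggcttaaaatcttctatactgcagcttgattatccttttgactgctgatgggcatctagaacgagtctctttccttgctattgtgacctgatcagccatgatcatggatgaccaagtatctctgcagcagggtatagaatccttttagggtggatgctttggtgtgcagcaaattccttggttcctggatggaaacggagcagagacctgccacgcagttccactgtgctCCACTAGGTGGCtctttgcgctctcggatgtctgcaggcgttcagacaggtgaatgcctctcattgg
Srrm3, chr5:135817856-135818155, plus strand: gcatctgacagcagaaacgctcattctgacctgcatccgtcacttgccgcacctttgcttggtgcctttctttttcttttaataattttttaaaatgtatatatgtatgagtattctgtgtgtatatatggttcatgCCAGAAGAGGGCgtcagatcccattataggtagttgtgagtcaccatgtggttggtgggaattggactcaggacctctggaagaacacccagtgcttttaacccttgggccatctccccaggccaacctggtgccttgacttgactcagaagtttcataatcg
Myh6, chr14:54966558-54966857, minus strand: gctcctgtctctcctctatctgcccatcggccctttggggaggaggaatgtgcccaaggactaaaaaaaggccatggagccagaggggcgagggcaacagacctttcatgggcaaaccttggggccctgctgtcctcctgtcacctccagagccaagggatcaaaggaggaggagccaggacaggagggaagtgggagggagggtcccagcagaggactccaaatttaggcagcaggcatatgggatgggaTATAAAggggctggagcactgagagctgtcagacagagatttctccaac
Actc1, chr2:114052826-114053125, minus strand: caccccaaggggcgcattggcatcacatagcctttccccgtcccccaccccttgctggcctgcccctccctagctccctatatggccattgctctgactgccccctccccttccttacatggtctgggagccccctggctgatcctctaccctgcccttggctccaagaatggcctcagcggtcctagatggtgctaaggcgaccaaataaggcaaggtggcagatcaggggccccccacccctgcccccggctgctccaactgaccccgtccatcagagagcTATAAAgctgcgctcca

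The core began 173 bases before the start site in *Tmem242*, 72 bases before it in *C1qbp*, 17 bases before it in *Pcp4* and 113 bases before it in *Srrm3*. At *Tmem242* the values were 214 and 173 for Pol II against 177 and 159 for CTCF, and 97 for IgG. At *Pcp4*, a gene known from Purkinje neurons, they were 3 and 3 for Pol II against 102 and 91 for CTCF. *Tmem242* thus carried both proteins at like values, whereas the ranges at *Pcp4* were far apart. In *Myh6* and *Actc1* the core of the CTCF motif was not found in this window, and TATAAA began at base 2 and base 34 counted from the RefSeq start site as base 1, downstream of where a TATA box lies.

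The deposited values are read counts per region divided by a size factor and rounded, so that they are comparable within a table but are not reads. The spacing of the values gave 3348599 and 4953300 reads in regions for Pol II, 7573241 and 10163649 for CTCF and 813041 for IgG. Between 35.6% and 42.4% of the uniquely mapped reads of the 4 libraries lay in regions, against 4.91% for IgG. A value of 1.36 and 0.945 stood for 1 read in the Pol II libraries, 0.406 and 0.284 in the CTCF libraries and 2.55 in the IgG library, so the IgG values have a scale of their own and are compared in RPM, the reads of a region relative to all mapped reads of the library, where a ratio is given. As a check of the tissue, the promoter regions of all 15 sarcomere genes were occupied by Pol II, by the rule given with the shared regions, which alone says little, since 84.7% of named genes tested had a best promoter region so occupied. Of 7 genes of skeletal muscle with a region 3 were occupied, among them *Mylpf* with 267 and 273 for Pol II. *Myh4*, a myosin of fast fibers, stood at 0 and 1 for Pol II in a region that misses the start site.

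The first question was which part of each landscape lay at promoters. Pol II was concentrated at promoters and CTCF was spread over promoters and distal regions in nearly even parts. A promoter region is one that the authors assigned to a gene because it lies within 5000 nt of an annotated start site, and 38260 regions were of this kind against 62996 others. Promoter regions held 77.2% and 76.5% of the Pol II signal in replicates 1 and 2, and 49.2% and 49.8% of the CTCF signal, with 54.5% for IgG. Both Pol II libraries stood far above both CTCF libraries, and the IgG library lay between them, close to CTCF. The mean difference was 27.4 percentage points, from 76.9 ± 0.447% to 49.5 ± 0.452% (SD, n = 2 libraries each). The exact two-sided permutation test of 2 against 2 libraries gave p = 0.333, the smallest it allows. Across all 12 libraries of the 3 genotypes the 6 Pol II libraries lay between 76.3% and 79.6% and the 6 CTCF libraries between 48.5% and 49.8%, without overlap (exact permutation p = 0.00216, two-sided, the smallest 6 against 6 allows). *Trdn-as* KO replicate 2 of Pol II had only 18.6% of its mapped reads in regions, and without it the difference was 28.8 percentage points.

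The contrast was sharper at the start site itself. The 12024 regions that contain the start site of their gene, 11.9% of all regions, held 62.9% and 61.7% of the Pol II signal but 29.0% and 29.4% of the CTCF signal and 34.4% of the IgG signal. Promoter regions that miss the start site held 14.3% and 14.8% of Pol II and 20.2% and 20.4% of CTCF. Thus the excess of Pol II lay in the regions across the start site, and promoter regions beside it held more of the CTCF signal than of the Pol II signal. Per kb of region the mean Pol II value fell with the distance of the region center from the start site, from 162 within 249 nt to 136 between 250 and 999 nt, 74.1 between 1000 and 2499 nt and 57.0 between 2500 and 4999 nt. It was 80.8 in the 1171 promoter regions whose center lay 5000 nt or more away. The CTCF value per kb stayed between 42.6 and 49.6 over the same bins, and was 47.6 in distal regions, where Pol II had 33.8. The IgG value per kb went from 41.1 to 30.5 between the nearest bin and that of 2500 to 4999 nt.

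Pol II and CTCF also differed in the kind of gene at whose promoter they lay. Promoters of protein-coding genes held 68.7% and 67.9% of the Pol II signal and 37.8% and 38.5% of the CTCF signal, against 43.7% for IgG. Promoters of long non-coding RNAs held 5.24% and 5.36% of Pol II and 5.80% and 5.85% of CTCF, which is nearly the same part of both. Processed pseudogenes, copies without a promoter of their own, were the reverse case, with 0.746% and 0.758% of Pol II and 2.04% and 1.99% of CTCF, beside 1.57% of IgG. Their regions had 31.2 Pol II and 54.1 CTCF per kb, against 129 and 46.6 at coding genes.

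Distal regions were divided by the coding genes listed in the table. Regions inside such a gene held 12.6% and 13.0% of the Pol II signal and 23.6% and 23.6% of the CTCF signal. Regions up to 5000 nt past its end held 1.19% and 1.25% of Pol II and 2.77% and 2.75% of CTCF. Regions elsewhere held 9.03% and 9.22% of Pol II and 24.5% and 23.9% of CTCF. The IgG shares were 23.6% inside a gene, 2.24% past its end and 19.7% elsewhere. Among the genes with the largest Pol II sums in distal regions of their body were *Ldb3*, which encodes a protein of the Z-disc, and *Tns1*, which encodes one of cell adhesions and also had the largest CTCF sum of all. *Ldb3* had 3562 and 3878 for Pol II against 664 and 693 for CTCF over 32 regions, of which 18 were occupied by Pol II and 7 by CTCF. *Fgfr2*, a growth factor receptor, had 693 and 730 for Pol II against 1844 and 1700 for CTCF over 68 regions, of which 12 were occupied by Pol II and 49 by CTCF. Of all distal regions 19.1% were occupied by Pol II and 59.8% by CTCF, beside 17.6% and 72.1% in *Fgfr2*. These sums depend on the number and length of the regions called in a gene.

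The second question was how long the occupied stretches were. Pol II signal lay in longer regions than CTCF signal. The regions are peaks of all libraries and antibodies merged by the authors, so that a length belongs to the merged region and not to a peak of 1 antibody. The signal-weighted median length, above and below which equal parts of a library's signal lie, was 1525 and 1513 nt for Pol II, 1030 and 1038 nt for CTCF and 1018 nt for IgG. Both Pol II libraries were above both CTCF libraries, by 485 nt on average (1519 ± 8.49 against 1034 ± 5.66 nt, SD, n = 2 libraries each; exact permutation p = 0.333). Over the 3 genotypes the lengths ran from 1505 to 1541 nt in 6 Pol II libraries and from 1024 to 1041 nt in 6 CTCF libraries (exact permutation p = 0.00216, two-sided).

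Regions of 5000 nt or more numbered 205 and held 6.62% and 6.68% of the Pol II signal, 2.00% and 2.13% of the CTCF signal and 2.76% of the IgG signal. All 205 were occupied by Pol II, and 183 also by CTCF. Regions between 500 and 999 nt were where CTCF exceeded Pol II most, with 34.0% and 33.2% of its signal against 17.5% and 17.7%. From the shortest to the longest bin the Pol II value per kb rose from 21.8 to 205, whereas that of CTCF was 18.9 below 250 nt, highest at 57.7 between 1000 and 1999 nt and 41.0 in regions of 5000 nt or more.

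The third question was how far the regions were shared. Most Pol II regions were also CTCF regions, while most CTCF regions lacked Pol II. A region was called occupied when both WT libraries of an antibody had at least 10 estimated reads and at least 3 times the IgG RPM, with the IgG floored at 3 reads. By this rule 29482 regions (29.1%) were occupied by Pol II and 62124 (61.4%) by CTCF. Both were present in 22994, which is 78.0% of the Pol II regions and 37.0% of the CTCF regions. Pol II alone was present in 6488, CTCF alone in 39130 and neither in 32644. The CTCF libraries held more reads than the Pol II libraries, so that a region of the same RPM passed the read minimum more easily for CTCF. With at least 5 times the IgG the shared regions fell to 10390, 45.7% of 22759 Pol II regions and 26.1% of 39747 CTCF regions, and among the 20000 regions with the highest mean value of each antibody 9244 (46.2% of either) were in both.

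Sharing differed by place, as did the share of regions occupied. In regions holding a start site 9742 were shared, 91.7% of the Pol II regions and 91.5% of the CTCF regions there. These shares were near the 88.6% occupied by CTCF and the 88.4% occupied by Pol II among all regions holding a start site. In distal regions 8619 were shared, 71.5% of the Pol II regions but 22.9% of the CTCF regions. Of all distal regions 59.8% were occupied by CTCF and 19.1% by Pol II. Of the regions with both proteins 62.5% were promoters, compared with 47.1% of those with Pol II alone and 25.8% of those with CTCF alone, against 37.8% of all regions. The median length was 1007 nt with both, 518 nt with Pol II alone and 480 nt with CTCF alone. None of the 39130 regions with CTCF alone reached 5000 nt, while 22 of those with Pol II alone did, among them the regions of *Myh6*, *Myh7* and *Actc1*.

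Within promoters the classes lay differently around the start site. The start site was inside 67.8% of the promoter regions with both proteins, 28.9% of those with Pol II alone and 8.99% of those with CTCF alone. The center lay downstream of the start site in 66.0% of promoter regions with both and in 66.2% with Pol II alone, but in 48.0% of those with CTCF alone. Coding genes made up 83.9% of the promoter regions with both, 73.7% of those with Pol II alone and 52.9% of those with CTCF alone. Distal regions with CTCF alone were 49.5% outside the listed coding genes and their near downstream side, compared with 38.5% of those with Pol II alone and 44.4% of all distal regions. Distal regions with CTCF alone followed each other at a median of 32.4 kb from center to center (quartiles 9.71 and 84.7 kb). Those with Pol II alone were fewer and lay 180 kb apart (quartiles 20.8 and 664 kb).

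The fourth question was whether the strength of both signals moved together. Over all 101256 regions the Spearman correlation of the mean values was 0.496, and it ran from 0.468 to 0.508 over the 4 pairs of libraries. Replicates of Pol II correlated at 0.888 and those of CTCF at 0.966. In promoter regions the correlation of Pol II and CTCF was 0.669 (38260 regions), in regions holding the start site 0.702 (12024) and in distal regions 0.372 (62996). The points share region length and background: the correlation with length was 0.672 for Pol II, 0.928 for CTCF and 0.827 for IgG, and that with IgG was 0.690 for Pol II and 0.755 for CTCF. Per kb of region the correlation of Pol II and CTCF was -0.100 over all regions, 0.145 at promoters, 0.248 across start sites and -0.244 in distal regions. The positive value over all regions was thus present for values per region and not for values per kb.

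Protein-coding promoters that hold their start site (10458 regions, 1 a gene) were ranked into 10 groups of equal size. From the lowest to the highest group by Pol II per kb the median Pol II value per kb went from 28.2 to 288, while that of CTCF went from 32.3 to 48.9 and that of IgG from 26.0 to 48.6. In RPM the median ratio of CTCF to IgG was 6.10 in the lowest group and 5.21 in the highest, whereas the ratio of Pol II to IgG was 3.24 and 22.2. Both CTCF and IgG were thus higher per kb where Pol II was higher, and by far less than Pol II. Ranked by CTCF per kb, the median Pol II value per kb was 68.9 in the lowest group, highest at 200 in group 8, and 124 in group 10, where CTCF was at 89.6 and the ratio of CTCF to IgG at 11.8. The promoters richest in CTCF were thus not those richest in Pol II.

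The motif core was most frequent in the promoters richest in CTCF, without a steady rise below them. Both strands were searched for CCA, any 2 bases, AG, any 2 bases, GGC and for TATAAA, and overlapping matches were kept. Of 10453 coding genes with a symbol and a region across the start site, 8203 had RefSeq promoters. The core was in 2.43% of all 32851 RefSeq promoters and in 2.94% of the 10219 promoters of the matched genes. By the class of the gene's region it was in 28 of 429 (6.53%) with CTCF alone and 14 of 694 (2.02%) with Pol II alone. It was in 250 of 8837 (2.83%) with both and 8 of 259 (3.09%) with neither. Genes were matched by symbol, so the promoters are not known to lie in these regions. In the group with the most CTCF per kb it was in 8.69%, and in group 9 in 3.23%, while groups 1 to 8 ranged from 1.66% to 2.73% without order. Ranked by Pol II per kb, it was in 4.93% of the lowest group and 1.49% of the highest. TATAAA was in 13.6% of all RefSeq promoters and 7.33% of those of the matched genes, with 11.1% for Pol II alone, 10.8% for neither, 7.69% for CTCF alone and 6.91% for both. These counts describe windows of a fixed length and no test was made of them.

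Differences at single regions were tested with limma on log2(value + 1). Regions entered the test when 2 or more of the 4 libraries reached a value of 10. Of 62724 such regions 51160 (81.6%) differed at an adjusted p under 0.05, with 24990 (39.8%) higher for Pol II and 26170 (41.7%) higher for CTCF. The median log2 difference, Pol II minus CTCF, was 0.11. This split depends on the scale: with each library scaled to its total signal in regions the counts were 17544 and 31636 and the median -0.79, and with uniquely mapped reads 18840 and 29945 and the median -0.60. Without CTCF replicate 1 the test called 22916 regions, 14433 higher for Pol II and 8483 for CTCF, and without CTCF replicate 2 it called 23927, 14630 and 9297, so that the larger count turned to Pol II. In these fits 1 CTCF library is left, the Pol II pair gives the spread, and the lone library is assumed to vary like it. In regions holding a start site 84.4% were higher for Pol II and 7.81% for CTCF (median log2 difference 1.82, 11555 tested). In other promoter regions the shares were 39.4% and 40.9% (median 0.16, 14798 tested), and in distal regions 25.8% and 52.8% (median -1.45, 36371 tested). With no filter on low values the shares were 80.4% and 7.57% across start sites and 15.6% and 39.1% in all 62996 distal regions (median -0.82), 6563 and 7497 of 26236 other promoter regions were higher for Pol II and CTCF, and the median over all regions turned from 0.11 to -0.21. With the total signal as the scale these shares were 75.2% and 13.2% across start sites, 25.3% and 50.6% in other promoter regions and 14.1% and 61.4% in distal regions. Without CTCF replicate 1 they were 70.8% and 2.30%, and 10.1% and 17.2%, across start sites and in distal regions, and without CTCF replicate 2 they were 70.2% and 2.80%, and 10.5% and 18.8%. In other promoter regions they were then 17.4% and 13.2%, and 18.4% and 14.4%. Of the 205 regions of 5000 nt or more, 200 were higher for Pol II and 3 for CTCF.

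Of 12 gene lists the sarcomere genes had the highest median excess of Pol II. For each gene the promoter region with the highest mean of the 4 libraries was taken, and the like background is the same choice for all 12869 named genes tested, of which 77.1% were higher for Pol II and 15.1% for CTCF (median log2 difference 1.72). Over all 26353 promoter regions tested the shares were 59.2% and 26.4% (median 1.14). The 15 sarcomere genes had a median log2 difference of 3.24, with 14 called higher for Pol II under all 3 scales and without each library, and none for CTCF except *Tnni3* on the total scale. At *Myh6*, alpha myosin heavy chain (ENSMUSG00000040752, chr14:55181949-55214903 in GRCm39, start site inside), the values were 10654 and 11527 for Pol II, 299 and 289 for CTCF and 1003 for IgG. This is the highest value in both WT Pol II libraries, and the CTCF signal of 36.3 and 35.7 RPM was near the 23.8 RPM of IgG. The log2 difference was 5.23 ± 0.05 (SE, adjusted p = 0.000192).

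*Actc1*, cardiac alpha actin, had 4063 and 4165 for Pol II against 160 and 194 for CTCF (log2 difference 4.54 ± 0.10, adjusted p = 0.000192). *Myl2*, the regulatory light chain of the ventricle, had 4859 and 5251 against 418 and 421 (3.59 ± 0.05). In both genes the Pol II values were many times the CTCF values and the replicates lay close together. The regions of the sarcomere genes were long, with a median of 9151 nt and up to 32955 nt. The exception was *Tnni3*, cardiac troponin I, with 109 and 119 for Pol II against 92 and 100 for CTCF in a region of 1324 nt that misses the start site (0.25 ± 0.09, adjusted p = 0.0704). Its sign turned when libraries were scaled to total signal (-0.38, adjusted p = 0.0232) or to mapped reads (-0.24, adjusted p = 0.140).

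Calcium handling genes had a median above the 1.72 of all named genes and below that of the sarcomere genes. Of 12 genes 11 had a promoter region, and 10 were higher for Pol II, with a median log2 difference of 2.53. *Atp2a2*, the calcium pump of the sarcoplasmic reticulum, had 2762 and 2932 for Pol II against 254 and 247 for CTCF (3.50 ± 0.05, adjusted p = 0.000192). *Pln*, the phospholamban gene that encodes the inhibitor of this pump, had 4668 and 4824 against 500 and 470 (3.29 ± 0.05). The merged regions of these genes measured 11433 and 14867 nt, and the libraries of the antibodies were far apart in both. *Ryr2*, the calcium release channel, had 641 and 697 against 106 and 110 (2.62 ± 0.07). *Srl*, sarcalumenin, stood apart with 143 and 124 for Pol II and 147 and 122 for CTCF, and the libraries overlapped (-0.01 ± 0.13, adjusted p = 0.958). On the total scale it was higher for CTCF (-0.64, adjusted p = 0.00403).

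*Trdn-as*, *Trdn* and *Mettl3* were higher for Pol II in WT hearts, as were 77.1% of all named genes tested (median log2 difference 1.72). *Trdn-as* had 530 and 595 for Pol II, 52 and 49 for CTCF and 94 for IgG in the region chr10:33129849-33132974 (3.45 ± 0.09, adjusted p = 0.000192) and was occupied by Pol II alone. *Trdn*, the triadin gene, had 155 and 196 for Pol II against 33 and 35 for CTCF in a region of 1270 nt centered 3003 nt from the start site (2.33 ± 0.15, adjusted p = 0.000488). *Mettl3*, the m6A methyltransferase, had 177 and 202 against 52 and 44 (1.96 ± 0.13, adjusted p = 0.000536).

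Housekeeping genes had a higher median than the background of 1.72, whereas the CTCF and cohesin list had a lower one, and the shares of Pol II subunit genes and of CTCF and cohesin genes called higher for Pol II were near the 77.1% of all named genes. All 13 housekeeping genes with a region were higher for Pol II (median log2 difference 2.46), which fell to 12 without either CTCF library. *Gapdh*, an enzyme of glycolysis, had 1268 and 1242 for Pol II against 186 and 196 for CTCF (2.71 ± 0.05). *Tubb5*, a tubulin, had 489 and 552 against 263 and 269 (0.96 ± 0.08, adjusted p = 0.000786, and 0.0542 and 0.0515 without CTCF replicates 1 and 2). Of 11 Pol II subunit genes 9 were higher for Pol II and 1 for CTCF (8 and 2 under both other scales). *Polr2a*, the large subunit that the antibody recognizes, had 1488 and 1325 against 136 and 143 (3.32 ± 0.08, adjusted p = 0.000192). *Polr2f* was the gene higher for CTCF, with 12 and 14 for Pol II and 40 and 51 for CTCF in a region without the start site (-1.73 ± 0.22, adjusted p = 0.00281, and 0.0542 without CTCF replicate 2).

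Of 10 genes of CTCF, cohesin and its regulators 8 were higher for Pol II and 1 for CTCF, with a median log2 difference of 1.53 (7 and 2 under both other scales). Both proteins occupied all 10, against 84.7% for Pol II and 91.4% for CTCF among all named genes tested. *Ctcf* itself had 340 and 395 for Pol II against 165 and 151 for CTCF (1.21 ± 0.10, adjusted p = 0.000918, and 0.0501 and 0.0540 without CTCF replicates 1 and 2). *Mau2*, a cohesin loader, had 291 and 304 against 50 and 53 (2.51 ± 0.08). *Nipbl*, its partner, had 449 and 422 against 273 and 282 (0.65 ± 0.06, adjusted p = 0.00103, but 0.853 with libraries scaled to total signal). *Pds5b*, a cohesin regulator, had 106 and 116 against 136 and 134 (-0.28 ± 0.08, adjusted p = 0.0323, and 0.157 and 0.142 without CTCF replicates 1 and 2). The libraries of the antibodies did not overlap at any of these 4 genes, and at *Pds5b* CTCF was the higher. The call of *Pds5b* was not kept with a replicate block, with no variance trend or with 12 libraries in the model.

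*Hox* genes, which set positions along the embryonic body axis, were mostly called higher for CTCF. Of 24 genes 18 had a promoter region and 16 were tested; 13 were higher for CTCF and 3 for Pol II, with a median log2 difference of -2.92. The counts were the same under all 3 scales. Of the 13 regions 10 missed the start site, and promoter regions of that kind were higher for Pol II in 39.4% and for CTCF in 40.9% of all cases tested. In 7 of the 13 both Pol II values were under 10, so that the region entered the test through CTCF alone and its direction was fixed by that. Without CTCF replicate 1 the counts were 6 and 2, and without CTCF replicate 2 they were 7 and 2, while the median hardly moved (-2.78 and -3.05). *Hoxa7* had 27 and 21 for Pol II, 158 and 133 for CTCF and 43 for IgG (-2.56 ± 0.18, adjusted p = 0.000594). *Hoxc8* had 4 and 7 for Pol II against 88 and 73 for CTCF (-3.68 ± 0.31, adjusted p = 0.000956, and 0.0584 and 0.0534 without CTCF replicates 1 and 2). At *Hoxb13* both Pol II libraries were at 0 and the CTCF libraries at 18 and 12, which is at least 4.34-fold higher for CTCF with a floor of 3 reads in each Pol II library. Among those higher for Pol II were *Hoxb4*, with 63 and 56 for Pol II against 9 and 8 for CTCF (2.67 ± 0.19, in the test through Pol II alone), and *Hoxc6*, with 26 and 38 against 12 and 7 (1.67 ± 0.37, adjusted p = 0.0145, and 0.0792 and 0.121 without CTCF replicates 1 and 2, and 0.0783 and 0.124 without Pol II replicates 1 and 2).

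Imprinted genes, which are read from only 1 parental copy, gave 6 tested regions of 13 genes, 1 higher for Pol II and 2 for CTCF (1 and 4 on the total scale, 2 and 1 without CTCF replicate 1 and 1 and 1 without CTCF replicate 2). At *H19* the region chr7:142133550-142135980, centered 2879 nt from the start site, had 15 and 16 for Pol II, 164 and 154 for CTCF and 69 for IgG (-3.28 ± 0.12, adjusted p = 0.000214). The imprinting control region upstream of *H19* is a textbook site of CTCF binding. *Grb10*, an adaptor protein, had 150 and 182 for Pol II against 40 and 29 for CTCF (2.24 ± 0.20, adjusted p = 0.00113). *Peg3* had 252 and 258 against 234 and 193 and was not called (0.26 ± 0.11, adjusted p = 0.0874), and its sign turned with libraries scaled to total signal (-0.37, adjusted p = 0.00897). *Peg10* overlapped between antibodies, with 97 and 70 against 87 and 95 (-0.14 ± 0.19, adjusted p = 0.517). *Gnas*, a G protein subunit, had 4 and 6 for Pol II against 20 and 22 for CTCF (-1.89 ± 0.30, adjusted p = 0.00530, but not called without either CTCF library). Both its Pol II values were under 10, so it entered the test through CTCF alone, which fixed its direction. *H19* thus lay on the CTCF side and *Grb10* on that of Pol II.

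Markers of other cell types of the heart were mixed, and the shares of fibroblast and leukocyte genes higher for Pol II did not exceed the 77.1% of all named genes. All 6 endothelial genes tested were higher for Pol II (median log2 difference 2.52), and 5 of them without either CTCF library. *Cdh5*, the cadherin of endothelial junctions, had 166 and 202 for Pol II against 23 and 27 for CTCF (2.83 ± 0.15, adjusted p = 0.000367). Of 8 fibroblast genes 5 were higher for Pol II and 3 for CTCF, or 4 and 1 without CTCF replicate 1 and 4 and 2 without CTCF replicate 2. One of those for Pol II, *Lum* (29 and 40 against 7 and 6), entered the test through Pol II alone. *Tcf21*, a transcription factor of fibroblasts, had 231 and 247 for Pol II against 23 and 26 for CTCF (3.24 ± 0.11, adjusted p = 0.000203). *Pdgfra*, a growth factor receptor, had 118 and 127 for Pol II against 281 and 262 for CTCF in a region centered 4227 nt from the start site (-1.14 ± 0.08, adjusted p = 0.000542). *Postn*, periostin, had 5 and 10 against 84 and 70 (-3.26 ± 0.36, adjusted p = 0.00193, and 0.0812 and 0.0733 without CTCF replicates 1 and 2).

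Of 8 leukocyte genes 3 were tested, 2 higher for Pol II and 1 for CTCF, or 1 and 1 without either CTCF library. One of those for Pol II, *Adgre1* (12 and 17 against 2 and 1), entered the test through Pol II alone. *Cd68*, a macrophage protein, had 110 and 126 for Pol II against 11 and 15 for CTCF (3.10 ± 0.20, adjusted p = 0.000516). *Cx3cr1*, a chemokine receptor of macrophages, had 19 and 17 against 100 and 77 (-2.23 ± 0.19, adjusted p = 0.000925). Genes of skeletal muscle were split, with 2 higher for Pol II and 3 for CTCF of 6 tested, or 2 and 1 without either CTCF library, and *Myh4* among the latter entered the test through CTCF alone. *Mylpf*, a myosin light chain of fast fibers, had 267 and 273 for Pol II against 92 and 97 for CTCF (1.51 ± 0.07, adjusted p = 0.000279), whereas *Tnnt3*, troponin T of fast fibers, had 117 and 118 against 198 and 174 (-0.66 ± 0.09, adjusted p = 0.00350, and 0.0588 and 0.0576 without Pol II replicates 1 and 2).

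Of 13 genes of other tissues 4 had a promoter region at all and 3 were tested, all higher for CTCF, or 1 of them without either CTCF library. *Apoa1*, a lipoprotein of liver, had 22 and 18 for Pol II against 91 and 76 for CTCF (-2.01 ± 0.18, adjusted p = 0.00108). *Gad1*, an enzyme of inhibitory neurons, had 10 and 5 against 50 and 47 (-2.61 ± 0.36, adjusted p = 0.00367, and 0.0998 and 0.0947 without CTCF replicates 1 and 2). At these genes the CTCF values lay above those of Pol II in every library, and all 3 regions missed the start site. Of all tested promoter regions of that kind 40.9% were higher for CTCF, against 15.1% of the best promoter regions of named genes.

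The regions with the highest values were long. For Pol II they were, after *Myh6*, a region of 24562 nt on chromosome 19 assigned to a misc_RNA gene without a symbol (ENSMUSG00002076852), with 7544 and 7737 for Pol II against 853 and 845 for CTCF (3.17 ± 0.03), and a region of 22980 nt across *Mir133a-2*, a microRNA of muscle, with 5495 and 5716 against 310 and 331 (4.12 ± 0.05). For CTCF the highest promoter was *Setd1b*, a histone methyltransferase, with 926 and 893 for CTCF and 3584 and 3607 for Pol II over 12908 nt (1.98 ± 0.03). Second came *Gm37419* with 906 and 908 for CTCF and 1668 and 1764 for Pol II (0.92 ± 0.04). Thus even the regions with the most CTCF had a higher Pol II value on the deposited scale, beside 649 and 471 for IgG.

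The highest distal Pol II region lay inside *Ldb3*, the gene of a Z-disc protein, with 2659 and 2772 for Pol II against 338 and 347 for CTCF over 12026 nt (2.98 ± 0.04). The next lay inside *Usp2*, a deubiquitinase, with 1441 and 1465 against 168 and 163 (3.13 ± 0.04). Of the 3 distal regions with the most CTCF 1 lay inside a coding gene, in *Plec*, the gene of a cytoskeletal linker, with 507 and 488 for CTCF and 1019 and 977 for Pol II (1.00 ± 0.05). The distal maxima named here again had more Pol II than CTCF on the deposited scale.

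The largest differences toward CTCF were of another kind, in short regions with Pol II at 0, which at this depth does not show that Pol II was absent. Both Pol II libraries were at 0 in 980 of the tested regions, 801 of them distal, whereas both CTCF libraries were at 0 in 1. These 980 regions entered the test through CTCF alone, which fixed their direction. The CTCF libraries held more reads, so that a region of the same RPM was at 0 less often for CTCF. At chr7:143979551-143980417, 867 nt outside the listed coding genes, the CTCF values were 91 and 78 and the IgG value 36, at least 24.4-fold higher for CTCF than a floor of 3 reads in each Pol II library. At chr2:154015023-154015784 they were 83 and 76 with 15 for IgG, at least 23.0-fold higher. Toward Pol II the largest difference after *Myh6* was in a region of 680 nt beside a snoRNA gene without a symbol (ENSMUSG00000119648), with 270 and 239 for Pol II against 9 and 9 for CTCF (4.67 ± 0.12). Both CTCF values were under 10, so it entered the test through Pol II alone.

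Most chromosomes differed little. The share of Pol II signal divided by the share of CTCF signal ran from 0.897 on chromosome 6 to 1.15 on chromosome 19 among the autosomes. On chromosome 19 every pairing of libraries gave at least 1.14, and on chromosome 6 none gave more than 0.900. The ratio was 1.06 on X and 2.45 on Y (2.21 to 2.71 over the pairings), which had only 6 regions. The contrast between the antibodies was also compared between genotypes with a term for the difference in limma over 12 libraries. No region of 73281 was called for *Trdn-as* KO or for *Mettl3* KO, with 4331 (5.91%) and 6940 (9.47%) at an unadjusted p under 0.05. With 2 libraries a group this does not show that the contrast was the same in the genotypes.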

How the data were processed

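Nuclei of mouse ventricles were subjected to chromatin immunoprecipitation with antibodies to the B1 subunit of Pol II, to CTCF or with IgG. Per the submitters' processing notes and the study's methods, the authors trimmed reads with Trimmomatic 0.39, aligned them to mm39 with STAR 2.7.11b, removed duplicates with Picard 3.1.1, called peaks with MACS, merged the peaks of all libraries into regions and counted reads with featureCounts. The authors divided these counts by size factors of DESeq2 1.36.0 and rounded them, so the deposited values are a score on a normalized scale and no count model was used here. The table was read through its column names, and groups were taken from the labels. The 3 input libraries have no column in the table used.

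The value of 1 read was estimated as the step that best fitted the spacing of the values in a library, and gave reads and RPM. Pol II was compared with CTCF by limma 3.58.1 (R 4.3.3) with a variance trend on log2(value + 1), in regions with at least 10 in at least 2 of the 4 WT libraries, with Benjamini-Hochberg adjusted p under 0.05. Differences are on that scale and understate the change of low regions. Single quantities were compared by exact two-sided permutation of libraries. Python 3.11.15 with pandas 2.3.3, numpy 2.4.6 and scipy 1.17.1 was used. RefSeq promoter sequences are of GRCm38.p6, and no coordinates were converted. GENCODE vM21 gave names for 3 of 5 regions' gene identifiers by exact match.

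The limma step was tested on simulated data. Members, gene lists and tests were chosen with earlier results of these data known. By rule, the promoter region with the highest mean stood for each list gene. Up to 6 a list were named, those with the largest and smallest difference and any that a statement rests on. Also named were *Trdn*, *Trdn-as*, *Mettl3* and, per antibody, the 3 promoter and 3 distal regions with the highest mean. So were, per antibody, the 5 with the largest difference among those of mean at least 50. Others were picked after their values were seen.

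Same-numbered libraries did not deviate together (correlation 0.00652 over 62724 regions), so replicate numbers were not used as a block. Replicates differed by more than sampling noise, with a chi-square per region of 1.40 for Pol II and 1.42 for CTCF. Alternatives were other scales, filters, pseudocounts, thresholds, all 12 libraries, a replicate block and leaving out each library.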

Additional observations from a re-analysis of the deposited data

Results flagged for a closer look

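Of 12 measures of library quality and signal checked across groups of 6 libraries, 1 stood apart. In replicate 2 of Pol II from *Trdn-as* KO hearts 18.6% of the uniquely mapped reads lay in regions, far below the other 5 Pol II libraries (the gap exceeded Dixon's critical value). Chance gives such a gap in about 1 of 20 groups. This library is in none of the main WT comparisons, but it is in the alternative fit with all 12 libraries in the model.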

How the results depend on the processing

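The number of regions that differed between Pol II and CTCF ran from 22916 to 48142 when 1 WT library was left out, with 22916 without CTCF replicate 1 and 23927 without CTCF replicate 2. With a replicate block it was 49803, although the numbers do not pair the libraries, and the block took the call from *Pds5b*. The difference in promoter share was 30.6 percentage points with IgG subtracted, 26.9 without the top 100 regions, and 27.1 to 27.7 when 1 library was left out. In 12 libraries without *Trdn-as* KO Pol II replicate 2, an alternative chosen after seeing the data, it was 28.8 points and the length difference 492 nt. The length difference was 539 nt with IgG subtracted, 424.5 nt without regions of 5000 nt or more, 439 nt without the top 100 regions and 479 to 491 nt when 1 library was left out.

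Of the Pol II regions 90.1% were CTCF regions at 2 times the IgG, 45.7% at 5 times, 46.2% among the top 20000, and 71.2% to 83.2% when 1 library was left out. Of the CTCF regions the shares were 40.8%, 26.1%, 46.2% and 35.4% to 43.0%. The correlation over regions was 0.550 by Pearson, -0.100 per kb, 0.245 in regions that passed the filter and 0.480 to 0.504 when 1 library was left out. Signs turned at *Tnni3* (-0.38 on the total scale, -0.24 on mapped reads), *Polr2c* (-0.56, -0.42, and from -0.038 without CTCF replicate 2 to 0.17 without CTCF replicate 1), *Peg3* (-0.37, -0.22), *Srl* (0.094 without Pol II replicate 2, 0.13 without CTCF replicate 1, and down to -0.14 without CTCF replicate 2) and *Peg10* (0.093 without Pol II replicate 2, and down to -0.37 without Pol II replicate 1). The causes were not tested.

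Over 65 regions followed, 782 of 843 alternative values kept direction and call, 46 lost the call, 5 gained it and 10 reversed. Leaving out either CTCF replicate ended 14 calls each. Whether replicates are separate hearts is not stated, and 2 libraries a group allow no exact p under 0.333. The depth of the Pol II libraries limits what can be said of regions at 0.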
